A study of Equus caballus with 17 samples.

Results

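Of the autosomal members of the miR-15/16 family, eca-miR-15b, eca-miR-16 and eca-miR-195 of horse (written below without the prefix eca-) were followed through testis development and into sperm. They were taken by name from a table of 1763 small RNA entries that held 274 annotated mature miRNAs, and are 3 of those 274. Small RNA was sequenced from 17 horse (Equus caballus) libraries: Infant testis (n = 3), Pre-puber testis (n = 3), Puber testis (n = 3), Adult testis (n = 4) and Sperm (n = 4). The labels name no treatment, genotype, breed or age beyond the stage, so all groups are untreated as far as the labels say. The labels give sperm RNA a shorter DNase step and a phenol:chloroform clean-up, and testis RNA a longer DNase step, so preparation and cell source cannot be told apart between Sperm and testis. Testis libraries hold all cell types of the organ, and in such bulk samples fewer cells of a type and less RNA per cell cannot be told apart.

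miRNAs of this family share the same or nearly the same seed, the short stretch near the 5′ end that pairs with target mRNAs, and therefore share many targets. Among the best known targets, from work in human and mouse, are mRNAs of G1 cyclins and of the survival factor BCL2, and the family is known for holding cells back from division. Its members come from several clusters. In the RefSeq gene table of the horse assembly TB-T2T, MIR15B lies beside MIR16-1 within the span of SMC4, a gene of chromosome condensation, MIR15A lies beside MIR16-2, MIR195 lies beside MIR497, and the X-linked MIR424 lies beside MIR503. Mature miR-16 is thus the product of both a miR-15b and a miR-15a cluster. The table listed it once for each of its 2 precursors, the smaller entry holding 99.6% of the larger, so the precursors cannot be told apart and the larger entry was used.

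Annotated counts ranged from 9.53 to 12.4 M per library for Infant, 8.11 to 13.1 M for Pre-puber, 3.96 to 6.04 M for Puber, 2.18 to 4.62 M for Adult and 1.48 to 2.26 M for Sperm (M, mega), so depth differed with the group. Levels are in CPM, read counts set to a common total of annotated counts, after TMM scaling, which sets libraries on a common scale from the bulk of their miRNAs. Testis libraries were scaled together, and Sperm and Adult libraries were scaled together in a second fit, so Adult levels differ between the fits. Labels were set against marker miRNAs. The 4 germ cell miRNAs (miR-34b-5p, miR-34c, miR-449a and miR-449b, abundant in meiotic and later germ cells) summed to 105391 to 360114 CPM in Sperm and 28819 to 38940.1 CPM in Adult. The 3 measured miRNAs of stroma and smooth muscle (miR-145, miR-199a-5p and miR-199b-5p) summed to 65.8 to 152 CPM in Sperm and 10092 to 14698 CPM in Adult. Over the testis stages the germ cell sum was 17.6 to 53.1 CPM for Infant, 45.1 to 3296 CPM for Pre-puber, 11951 to 22808 CPM for Puber and 40216 to 50439.5 CPM for Adult. The stromal sum was 32329 to 51209 CPM for Infant, 31496 to 37770.1 CPM for Pre-puber, 23656 to 31471 CPM for Puber and 14975 to 18816 CPM for Adult, and the part of these cells in the testis levels below was not tested. miR-202 of gonadal soma was not among the annotated miRNAs analysed here.

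In testis, none of the members passed the test for a change over the stages, while in sperm they parted: miR-16 and miR-15b were higher than in Adult testis and miR-195 lower. In Sperm, miR-16 was 16.95-fold and miR-15b 6.80-fold higher than in Adult testis, and miR-195 was 70.4-fold lower in Sperm. Within single libraries, the count ratio of miR-195 to miR-16 differed 1347.5-fold between Sperm and Adult.

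miR-16 is the most widely expressed miRNA of the family. Its level was 2099, 1307 and 1237 CPM in Infant 31a, 31b and 30, 1115, 949.8 and 2102 CPM in the Pre-puber libraries 3a, 3b and 14, 1126, 1228 and 1610.4 CPM in Puber 10, 11 and 19, and 1991, 1659, 3529 and 2158 CPM in Adult 13, 20, 33 and 4. Adult libraries all lay above the Puber libraries, while the other neighbouring stages overlapped. By mean level it stood at position 41 of 184 tested miRNAs for Infant, 43 for Pre-puber, 46 for Puber and 34 for Adult.

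miR-15b, made from the same cluster as one of the miR-16 precursors, was present at about the level of the middle of the tested miRNAs, at positions 84, 87, 85 and 80 over the same stages. Its level was 154, 125 and 227 CPM in Infant 31a, 31b and 30, and 154, 118 and 301 CPM in the Pre-puber libraries 3a, 3b and 14. It was 160.2, 220.1 and 245 CPM in Puber 10, 11 and 19, and 273, 194, 452 and 225 CPM in Adult 13, 20, 33 and 4. Every stage overlapped with the stage before it, and Adult overlapped with Infant.

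miR-195, made beside miR-497, had its highest mean in Pre-puber testis. It held 3884, 2654 and 1466 CPM in Infant 31a, 31b and 30, and 4269.9, 2926 and 7409 CPM in the Pre-puber libraries 3a, 3b and 14. It held 2589.8, 1968 and 2052 CPM in Puber 10, 11 and 19, and 1759, 1370.4, 3853 and 2067 CPM in Adult 13, 20, 33 and 4. Pre-puber and Puber libraries did not overlap, whereas Pre-puber overlapped with Infant and Adult with both Puber and Infant. The highest single value was that of Pre-puber 14, which also held the highest germ cell sum of its group (3296 CPM against 45.1 and 80.4 CPM in the others). The part of that library's germ cell content in the miR-195 level was not tested.

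**Figure D1:**
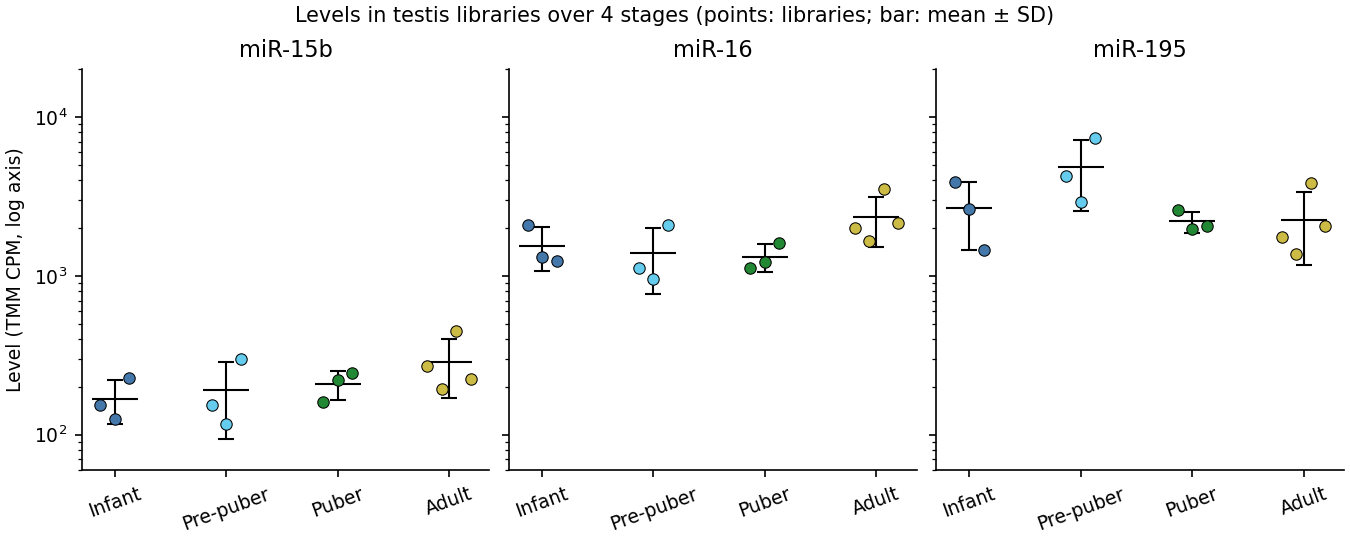
Level of miR-15b, miR-16 and miR-195 (TMM CPM, log axis) in each testis library by stage, with the mean ± SD of the stage. miR-195 averaged 4868 ± 2301 CPM in Pre-puber against 2203 ± 337 CPM in Puber, and miR-16 averaged 2334 ± 823 CPM in Adult against 1321 ± 256 CPM in Puber.

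By edgeR's quasi-likelihood F test with Benjamini-Hochberg adjustment over all tested miRNAs, 0 of the 3 members changed over the testis stages, where 47.8% of the 184 tested miRNAs did. The adjusted p was 0.114 for miR-195, 0.176 for miR-16 and 0.34 for miR-15b, and none had an unadjusted p under 0.05 (0.0656, 0.118 and 0.28). With DESeq2 or with scaling to the total alone, miR-16 passed (adjusted p = 0.0389 and 0.0207), and with all entries of the table in the fit all 3 members did (adjusted p from 0.00011 to 0.0341).

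Pre-puber against Infant testis asks what changes before puberty. The edgeR test called 0 of 3 members, against 23.9% of all tested miRNAs, and the libraries overlapped for all 3 members, where they did not for 35.9% of all. miR-195 averaged 4868 ± 2301 CPM in Pre-puber and 2668 ± 1209 CPM in Infant (SD, n = 3 each), a log2 fold change of 0.87 ± 0.46 (SE) with edgeR adjusted p = 0.205. miR-15b averaged 191 ± 97.1 CPM in Pre-puber and 169 ± 52.5 CPM in Infant, and miR-16 averaged 1389 ± 623 CPM in Pre-puber and 1548 ± 479 CPM in Infant, with log2 fold changes of 0.18 ± 0.43 and -0.16 ± 0.39. The signs of the miR-15b and miR-16 differences depended on the scaling or on single libraries. miR-195 passed with all entries in the fit (log2 fold change 1.30, edgeR adjusted p = 0.0366), but the median of all entries was then 4.18, against 0.16 for the miRNAs tested here. The number of all miRNAs called, 44, was 29 with libraries of a shared title number summed and 26 in a fit of these groups alone.

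Puber against Pre-puber testis spans the onset of puberty. The edgeR test called 0 of 3 members, against 1.09% of all tested miRNAs, and the libraries of the stages did not overlap for 1 member, miR-195, as for 26.6% of all. miR-195 averaged 2203 ± 337 CPM in Puber and 4868 ± 2301 CPM in Pre-puber (SD, n = 3 each), a log2 fold change of -1.14 ± 0.47 (SE) with an unadjusted p = 0.0295 and an adjusted p = 0.23 by the edgeR model. Without Pre-puber 14, the log2 fold change was -0.70. The log2 fold change was 0.13 ± 0.43 for miR-15b and -0.07 ± 0.39 for miR-16, and both took either sign among the alternatives. With all entries in the fit, miR-195 and miR-16 were called lower in Puber (log2 fold changes -2.83 and -1.77, edgeR adjusted p = 0.00577 and 0.0173), and the median of all entries was then 1.09, against -0.02 for the miRNAs tested here.

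Adult against Puber testis covers the last step of the testis series. The edgeR test called 0 of 3 members and 0% of all tested miRNAs. The libraries did not overlap for 1 member, miR-16, as for 23.9% of all. miR-16 averaged 2334 ± 823 CPM in Adult (SD, n = 4) and 1321 ± 256 CPM in Puber (n = 3), a log2 fold change of 0.82 ± 0.37 (SE) with an unadjusted p = 0.0443 and an adjusted p = 0.247 by the edgeR model. miR-15b averaged 286 ± 116 CPM in Adult and 209 ± 43.7 CPM in Puber, and miR-195 averaged 2262 ± 1098 CPM in Adult and 2203 ± 337 CPM in Puber, with log2 fold changes of 0.46 ± 0.40 and 0.04 ± 0.43. The sign of the miR-195 value changed under 5 alternatives.

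Adult against Infant testis spans the whole development. The edgeR test called 0 of 3 members, against 51.6% of all tested miRNAs, and the libraries overlapped for all 3 members, where they did not for 50% of all. miR-15b averaged 286 ± 116 CPM in Adult (SD, n = 4) and 169 ± 52.5 CPM in Infant (n = 3), a log2 fold change of 0.76 ± 0.41 (SE, edgeR adjusted p = 0.132). miR-16 averaged 2334 ± 823 CPM in Adult and 1548 ± 479 CPM in Infant, a log2 fold change of 0.59 ± 0.37 (edgeR adjusted p = 0.182). miR-195 averaged 2262 ± 1098 CPM in Adult and 2668 ± 1209 CPM in Infant, a log2 fold change of -0.24 ± 0.43 (edgeR adjusted p = 0.654). These directions depended on the scale. Scaled to the total alone, which moved the median log2 fold change of all tested miRNAs to 0.82 from -0.14, miR-15b and miR-16 were called higher in Adult (1.72 and 1.63, edgeR adjusted p = 0.016 and 0.00852) and miR-195 was positive (0.86), and of all tested miRNAs 84 were called higher and 21 lower, against 48 and 47 after TMM scaling. Relative to that median, the log2 fold changes of miR-15b, miR-16 and miR-195 were 0.90, 0.82 and 0.04, against 0.90, 0.74 and -0.10 after TMM scaling. A change of scale moves all miRNAs nearly alike, so this likeness was largely fixed in advance and gives no added support. With all entries in the fit, the values of miR-15b and miR-16 were negative (-0.80 and -0.93, edgeR adjusted p = 0.147 and 0.047), with a median of all entries of 5.68.

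Adult 33 held the highest level of each member in its group. It also stood out for miR-451, a miRNA of red cells, which as background carry much miR-16 too. miR-451 was at 1026 CPM in Adult 33 and at 83.4, 94.5 and 107 CPM in Adult 13, 20 and 4. Infant 30 stood out in the same way, with miR-451 at 656 CPM against 113 and 59.9 CPM in Infant 31a and 31b. It held the lowest miR-195 and miR-16 of its group, with miR-16 close to Infant 31b (1237 and 1307 CPM), and the highest miR-15b. Pre-puber 14 held the highest miR-451 of its group (188 CPM, against 61.3 and 31.7 CPM in 3a and 3b) and the highest level of each member. Puber 11 held the highest miR-451 of its group (91.9 CPM) and the highest level of no member. The part of blood in the members' levels was not tested. Of the blood cell miRNAs, 4 of 6 listed were in the table (miR-451, miR-486-5p, miR-142-5p and miR-150, miR-144 and miR-223 not being analysed here). Their sum ranged from 1064 to 6507 CPM for Infant, 970.02 to 2749 CPM for Pre-puber, 863 to 1209 CPM for Puber and 1061 to 4798 CPM for Adult. Without Adult 33, the log2 fold change of Adult against Infant was 0.47 for miR-15b, 0.23 for miR-16 and -0.77 for miR-195, none called.

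**Figure D2:**
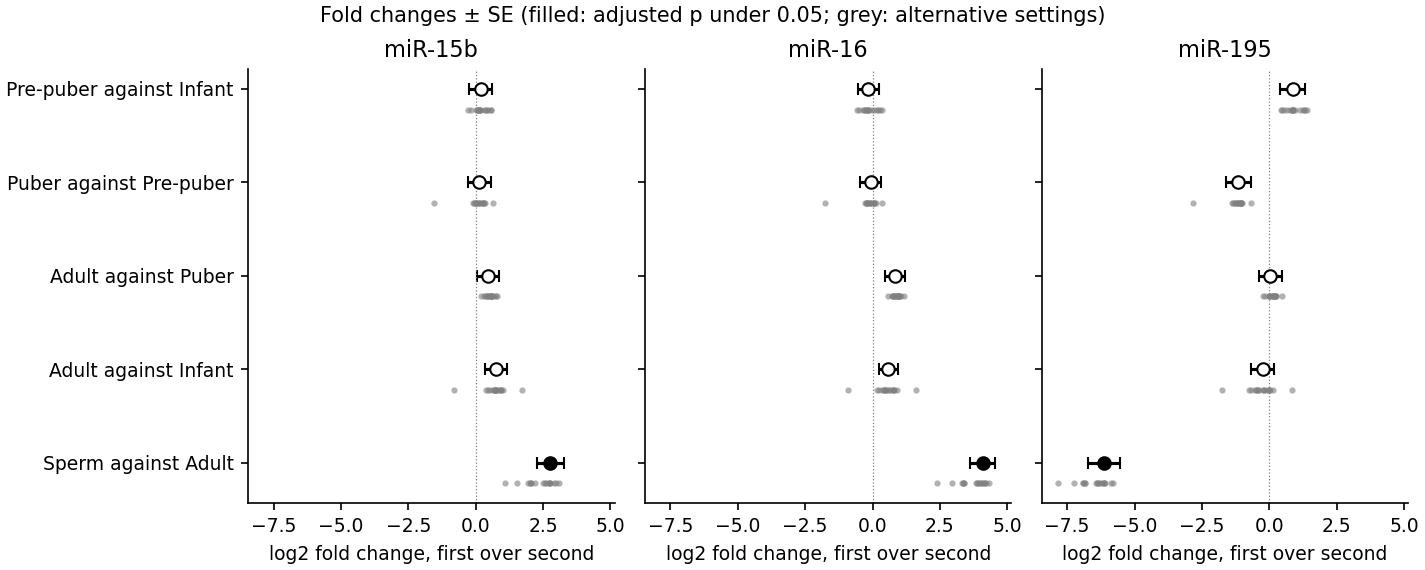
log2 fold change ± SE of each member in the 5 comparisons (horizontal axis; first group over second), filled where the edgeR adjusted p was under 0.05, with the values under the alternative settings in grey. The filled points are those of Sperm against Adult, at 2.77 for miR-15b, 4.08 for miR-16 and -6.14 for miR-195.

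Sperm against Adult testis compares the released cells with the organ. The edgeR test called all 3 members, against 81.5% of the 162 tested miRNAs. Of the members, 2 were higher in Sperm, as 42% of all tested, and 1 was lower, as 39.5% of all. In this scaling, Sperm and Adult libraries were separate for each of the 3 members and for 74.7% of all tested. For miR-15b they were not separate on other scales, as given below. Scaled to the total alone, 36 miRNAs were higher and 86 lower in Sperm, against 68 and 64 after TMM scaling. A call alone therefore sets the members little apart from other miRNAs in this comparison, and their sizes are given below. Of all tested miRNAs, 77.2% had a lower log2 fold change than miR-15b, 92.6% a lower one than miR-16 and 11.1% a lower one than miR-195.

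miR-16 reached position 12 of 162 in Sperm, against position 34 in Adult. Its level was 41794, 35092, 24955 and 15356 CPM in Sperm 1, 2, 3 and 4, against 1537, 1118, 2395 and 1862 CPM in Adult 13, 20, 33 and 4. All Sperm libraries lay far above all Adult libraries. The means were 29299 ± 11589 CPM in Sperm and 1728 ± 539 CPM in Adult (SD, n = 4 each), a log2 fold change of 4.08 ± 0.45 (SE, edgeR adjusted p = 5.4e-12). Without Adult 20, the Adult library of lowest depth, it was 3.37, and scaled to the total alone it was 2.41 (edgeR adjusted p = 3.91e-05 and 0.000101). The median of all tested miRNAs moved in the same direction, to -0.51 and -1.61 from 0.06, and relative to it the values were 3.88 and 4.02, against 4.03. A change of scale moves all miRNAs nearly alike, so the near match of 4.02 and 4.03 was fixed in advance.

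miR-15b stood at position 44 in Sperm and 80 in Adult. It held 2892, 1537, 859 and 441 CPM in Sperm 1, 2, 3 and 4, against 210.5, 131, 307 and 194 CPM in Adult 13, 20, 33 and 4. The Sperm libraries spread more widely than for miR-16, and Sperm 4 was near the highest Adult library. With the 17 libraries scaled together, Sperm 4 (359 CPM) lay below Adult 33 (429 CPM). As shares of annotated counts, Sperm 3 (0.0470%) and Sperm 4 (0.0213%) lay within the Adult range of 0.0185 to 0.0707%. The separation of the groups thus depended on the scale. The means were 1432 ± 1073 CPM in Sperm and 210.4 ± 72.9 CPM in Adult, a log2 fold change of 2.77 ± 0.51 (edgeR adjusted p = 2.26e-06). Without Adult 20 it was 2.01 (edgeR adjusted p = 0.00883), or 2.52 relative to the median of all tested miRNAs. Scaled to the total alone it was 1.10 (edgeR adjusted p = 0.101) and not called. That scaling moved the median of all tested miRNAs to -1.61 from 0.06, and relative to the median the value was 2.71 on both scales.

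miR-195 stood at position 106 in Sperm, against position 35 in Adult. Its counts were 37, 43, 21 and 4 in Sperm 1, 2, 3 and 4, or 27.0, 35.1, 25.9 and 5.29 CPM, against 1358, 923, 2615 and 1784 CPM in Adult 13, 20, 33 and 4. All Sperm libraries lay far below all Adult libraries. The log2 fold change was -6.14 ± 0.59 (edgeR adjusted p = 7.4e-14), with means of 23.3 ± 12.7 CPM in Sperm and 1670.1 ± 721 CPM in Adult (SD, n = 4 each), and the log2 fold change was -6.92 without Adult 20 and -7.82 scaled to the total alone. Relative to the median of all tested miRNAs these were -6.41 and -6.22, against -6.20. The near match of -6.22 and -6.20 was fixed in advance, as the change of scale moves all miRNAs nearly alike. For the lowest library, Sperm 4, the 4 counts gave 2.56 CPM without TMM scaling, with a 95% exact Clopper-Pearson interval of 0.698 to 6.56, which covers counting error only. With so few counts in Sperm 4, miR-195 passed the filter of this fit only through the Adult libraries, where it is high. A call as lower in Sperm was thus the only one open to it, and its p gives no added support.

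The summed level of the 4 blood cell miRNAs was 1466 to 3717 CPM in Sperm and 728 to 3256 CPM in Adult. Where 81.5% of all tested miRNAs were called, 1 of these 4 was, miR-451 of red cells. It held 821, 1989, 1550.0 and 1582 CPM in Sperm 1, 2, 3 and 4, against 64.4, 63.7, 696 and 92.2 CPM in Adult 13, 20, 33 and 4 (log2 fold change 2.69 ± 0.56, edgeR adjusted p = 1.97e-05). The other red cell miRNA, miR-486-5p, was not called (0.44 ± 0.48, edgeR adjusted p = 0.382). All 4 germ cell miRNAs were higher in Sperm, with a median log2 fold change of 2.90, and all 3 of stroma and smooth muscle were lower, with a median of -7.00. Of all tested miRNAs, 42% were higher and 39.5% lower. miR-145, at 6.62 to 16.3 CPM in Sperm, passed the filter only through the Adult libraries, where it is high, so its call gives no added support. miR-126-5p of endothelium was lower too (-3.01 ± 0.54, edgeR adjusted p = 1.2e-06). The part of these cell types in the values of miR-195 and miR-16 was not tested.

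The other family miRNAs in the table were miR-15a and miR-497, also autosomal, and the X-linked miR-424 and miR-503, 4 of 7 listed. No miR-103 or miR-107, which have a related seed, was among the annotated miRNAs analysed here. In the testis comparisons 1 call was made among them: miR-424 was lower in Adult than in Infant, at 1018 ± 732 CPM in Adult and 2813 ± 1830 CPM in Infant (log2 fold change -1.47 ± 0.52, edgeR adjusted p = 0.0325), with overlapping libraries, where 25.5% of all tested miRNAs were lower. In Sperm against Adult, 1 of the 4 was higher and 3 were lower, where 42% of all tested miRNAs were higher and 39.5% lower. miR-15a, made beside the other miR-16 precursor, was the higher one. It averaged 113 ± 82.4 CPM in Sperm and 34.1 ± 19.0 CPM in Adult (SD, n = 4 each), a log2 fold change of 1.73 ± 0.55 (edgeR adjusted p = 0.00342), with overlapping libraries. miR-497, the neighbour of miR-195, had 1, 6, 1 and 1 counts in Sperm 1, 2, 3 and 4, against 261, 160.0, 328 and 269 CPM in Adult 13, 20, 33 and 4. Its log2 fold change was -6.88 ± 0.72. miR-424 had 8 counts over the 4 Sperm libraries and averaged 1.95 ± 1.14 CPM in Sperm and 749.6 ± 486 CPM in Adult. miR-503 had 2 counts in Sperm, both in Sperm 2, and averaged 240.1 ± 157 CPM in Adult. With so few Sperm counts, miR-497, miR-424 and miR-503 passed the filter only through the Adult libraries, where they are high. A call as lower in Sperm was thus the only one open to them, and it gives no added support. The limit of 3 counts set for a count of 0 is 1.33, 2.02 and 1.92 CPM without TMM scaling in Sperm 1, 3 and 4, where miR-503 was at 0.

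**Figure D3:**
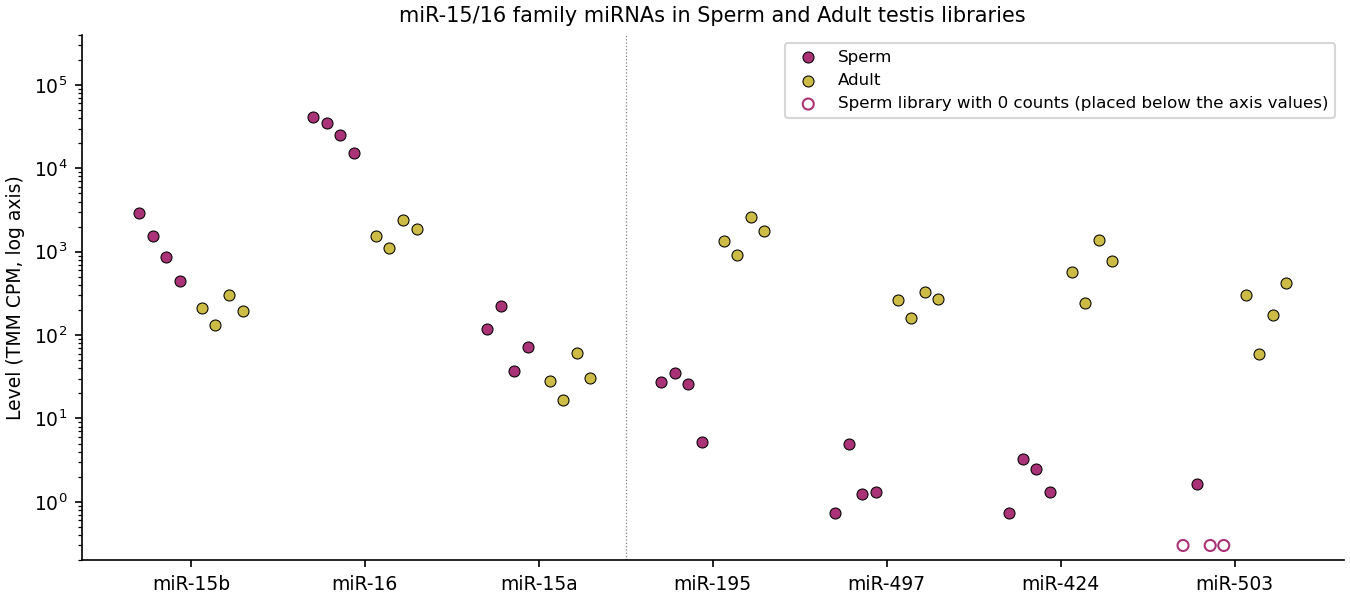
Level (TMM CPM, log axis) of the 3 members and the 4 other family miRNAs in each Sperm and Adult testis library, with libraries at 0 counts drawn as open circles below the axis values. To the left of the dotted line Sperm stands above Adult or overlaps with it, and to the right all Sperm libraries lie below all Adult libraries.

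As shares of annotated counts, the 3 members together made up 0.243 to 0.357% for Infant, 0.355 to 0.863% for Pre-puber, 0.333 to 0.516% for Puber, 0.308 to 1.22% for Adult and 0.765 to 2.70% for Sperm. Such shares amount to scaling to the total alone, so their differences between groups depend on that scale. On it, the median log2 fold change of all tested miRNAs was 0.82 for Adult against Infant and -1.61 for Sperm against Adult. Shares among the 3 members themselves do not depend on scaling. Of the counts of the 3 members, miR-16 held 32.0 to 42.2% for Infant, 20.1 to 23.8% for Pre-puber, 29.0 to 41.2% for Puber, 45.0 to 51.5% for Adult and 93.5 to 97.2% for Sperm. miR-195 held 50.04 to 65.0% for Infant, 73.3 to 77.1% for Pre-puber, 52.5 to 66.8% for Puber, 42.5 to 49.2% for Adult and 0.0335 to 0.1% for Sperm. miR-15b held between 2.52 and 7.74% in every library.

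**Figure D4:**
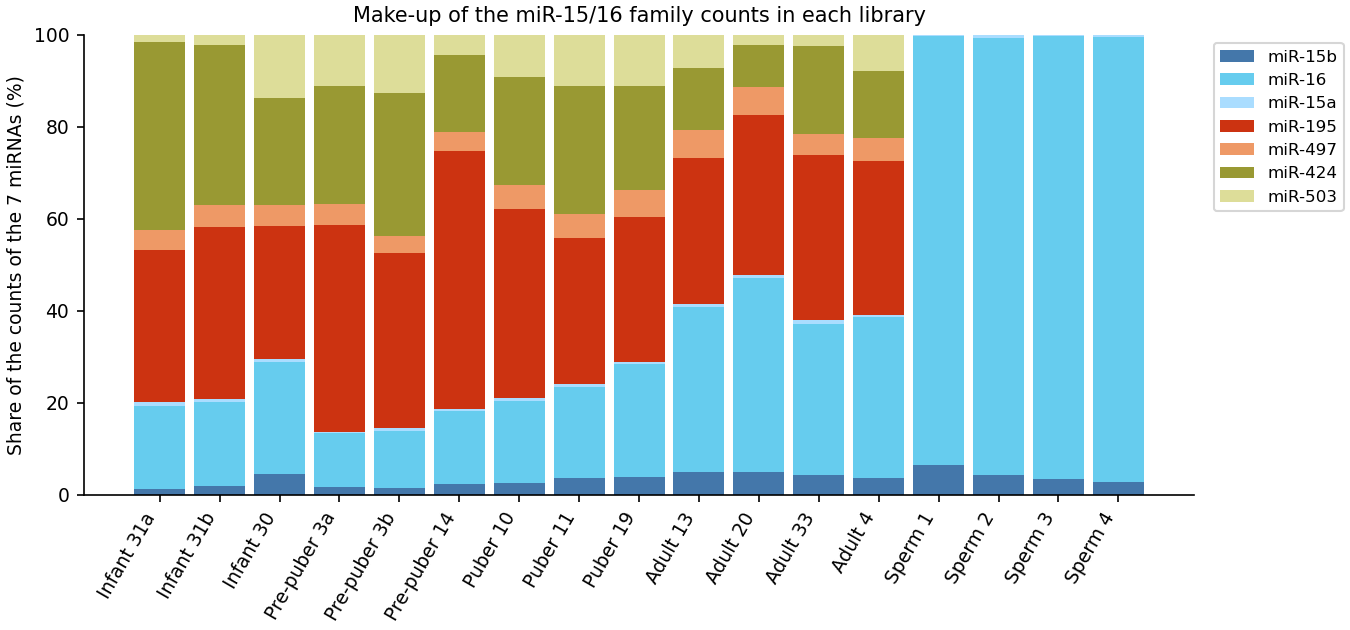
Share of each of the 7 family miRNAs (stacked, %) in their summed counts, by library. miR-16 held 11.7 to 42.2% in the testis libraries and 93.2 to 96.7% in the Sperm libraries, where miR-195 held at most 0.1%.

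Ratios of counts within a library show how members move against each other without a scale between libraries. miRNAs can be ligated and amplified with unequal yield, so a ratio is compared only between libraries and not read as a ratio of molecules. There were 1.85, 2.03 and 1.19 counts of miR-195 per count of miR-16 in Infant 31a, 31b and 30, and 3.83, 3.08 and 3.52 in the Pre-puber libraries 3a, 3b and 14. There were 2.30, 1.60 and 1.27 in Puber 10, 11 and 19, and 0.884, 0.826, 1.09 and 0.958 in Adult 13, 20, 33 and 4. Neighbouring stages did not overlap in this ratio, with Pre-puber highest and Adult lowest among the testis stages. Levels of single miRNAs did not overlap between neighbouring stages for 23.9 to 35.9% of all tested. Ratios of miRNAs outside the family were not examined, so the lack of overlap is not shown to be particular to this pair. In Sperm the ratio was turned round, with 1545, 998, 964 and 2901.5 counts of miR-16 per count of miR-195 in Sperm 1, 2, 3 and 4.

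Each ratio was set between groups with a two-sided exact permutation test over libraries. There were 15 tests (3 ratios in 5 comparisons), and none had an adjusted p under 0.05. The smallest exact permutation p possible was 0.1 or 0.0286. After adjustment over 15 tests, a value under 0.05 was therefore nearly out of reach even for fully separate groups. The lack of a call thus says nothing on the size of a difference. The mean log2 ratio of miR-195 to miR-16 was -10.49 ± 0.74 in Sperm and -0.10 ± 0.17 in Adult (SD, n = 4 each), with exact permutation p = 0.0286 (adjusted p = 0.0857). This p is the lowest that groups of 4 can give. The Adult mean of -0.10 ± 0.17 stood against 0.74 ± 0.43 in Puber and 0.72 ± 0.42 in Infant (SD, n = 3 each), each difference with exact permutation p = 0.0286 (the smallest possible) and adjusted p = 0.0857. These values take libraries that share a title number, in Infant and Pre-puber, as separate, so p may be too small there. Between Pre-puber, at 1.79 ± 0.16, and either neighbouring stage the exact permutation p was 0.1 (adjusted p = 0.167), which is the lowest that groups of 3 can give.

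miR-15b and miR-16 share a cluster, and their ratio is given next. There were 14.4, 22.8, 29.1 and 34.9 counts of miR-16 per count of miR-15b in Sperm 1, 2, 3 and 4, against 7.30, 8.56, 7.81 and 9.61 in Adult 13, 20, 33 and 4. The groups did not overlap, and the log2 ratio of miR-15b to miR-16 was -4.59 ± 0.55 in Sperm and -3.05 ± 0.17 in Adult (SD, n = 4 each; exact permutation p = 0.0286, adjusted p = 0.0857). Infant libraries ranged from 5.45 to 13.6 counts of miR-16 per count of miR-15b and overlapped with every other testis stage. Puber libraries ranged from 5.58 to 7.03 and Pre-puber libraries from 6.98 to 8.07, so these stages met only at their edges. Adult and Puber did not overlap, with mean log2 ratios of miR-15b to miR-16 of -3.05 ± 0.17 in Adult and -2.67 ± 0.17 in Puber (SD, n = 4 and 3; exact permutation p = 0.0571, adjusted p = 0.143). miR-195 against miR-15b gave a mean log2 ratio of -5.91 ± 0.79 in Sperm and 2.95 ± 0.24 in Adult, with the same exact permutation p = 0.0286 and adjusted p = 0.0857. A further pair of ratios was looked at after the values were seen and is given with no test. There were 24.7, 6.79, 23.2 and 6.17 counts of miR-15b per count of miR-15a in Sperm 1, 2, 3 and 4, against 7.51, 7.92, 5.02 and 6.32 in Adult 13, 20, 33 and 4. Sperm 1 and 3 were high, while Sperm 2 and 4 lay within the Adult range. There were 37, 7.17, 21 and 4 counts of miR-195 per count of its neighbour miR-497 in Sperm 1, 2, 3 and 4, where miR-497 had 6 counts or fewer, against 5.21 to 7.97 in Adult. The Pre-puber libraries held 9.90 to 13.3 and the Infant and Puber libraries 5.32 to 7.95.

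**Figure D5:**
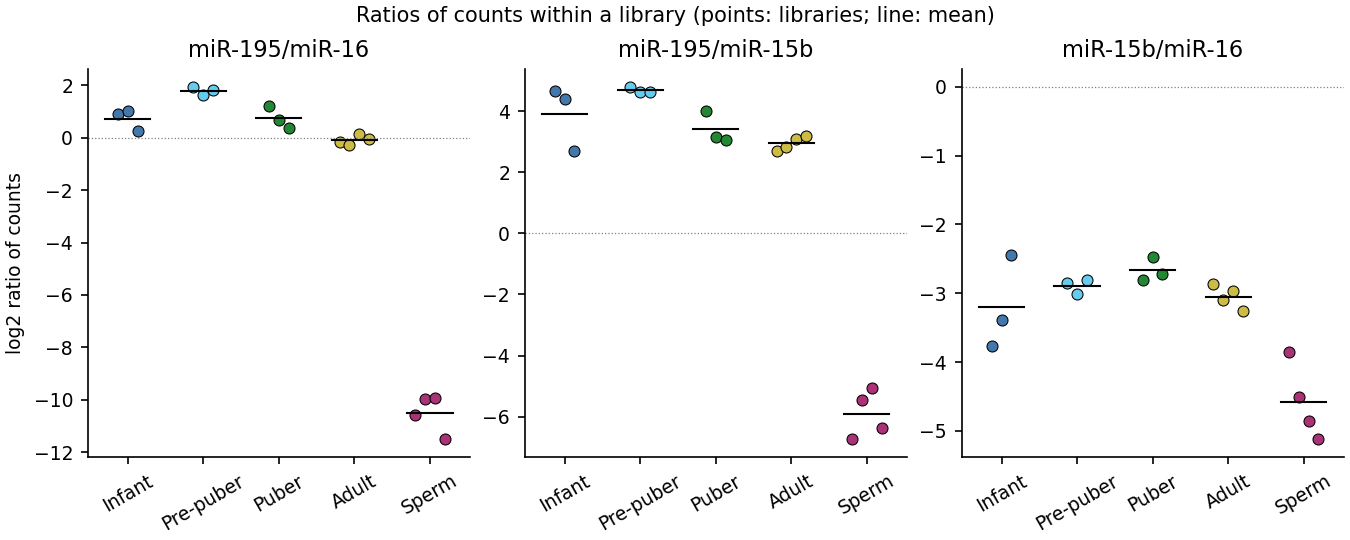
log2 ratio of the counts of 2 members in each library by stage (points), with the mean of the group (line). For miR-195 to miR-16 the Sperm libraries lie between -11.50 and -9.91 and the Adult libraries between -0.28 and 0.13.

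The miRNAs whose pattern was most like each member were taken by Pearson's r of log2(CPM + 1) over the 17 libraries scaled together, among 118 others with a mean of at least 50 CPM. All points share the scaling of their library, and with 13 testis and 4 Sperm libraries far apart, r over all 17 spans separate clusters, so it is given with the value over testis alone. For miR-195 they were miR-374a (r = 0.99), its neighbour miR-497 (0.98) and miR-424 (0.98), and over the 13 testis libraries miR-497 (0.83), miR-424 (0.72) and miR-28-5p (0.69). For miR-16 they were miR-30b (0.97), miR-122 (0.96) and miR-499-5p (0.96), and over testis alone miR-872 (0.79), miR-18a (0.78) and miR-32 (0.78). For miR-15b they were miR-16 (0.92), miR-18a (0.90) and miR-30b (0.88), and over testis alone miR-18a (0.87), miR-191a (0.85) and miR-374b (0.78). Between miR-15b and miR-16 r was 0.77 over testis alone, and between miR-16 and miR-195 it was 0.18.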

How the data were processed

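Small RNA from 13 testis and 4 sperm libraries was counted by the authors. The deposited count columns hold whole read counts per entry, and the deposited RPM columns equal the count over the column total, within 0.005 RPM, and were not used further. Per the submitters' processing notes, reads were trimmed with Trimmomatic and the build was EquCab3.0. The aligner and the counting program are not given in the sources used here. Each column was tied to its sample through the number in the sample's title. Adult 4 and Sperm 4 share their number and were told apart by the column prefix. 

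For each of 274 annotated mature miRNAs the entry with the highest summed count was kept. Groups were compared with edgeR 4.0.16 under R 4.3.3 (filterByExpr by group, TMM, quasi-likelihood F test, Benjamini-Hochberg adjusted p under 0.05), over the 13 testis libraries together (184 miRNAs) and over Sperm and Adult (162). SE is derived from F and is approximate. The script was tested on simulated data. Alternatives were other scalings, no filter, all entries in the fit, the entry with the lowest count, summed libraries with a shared title number, other sample sets, DESeq2 1.42.0, limma-voom (limma 3.58.1) and each library left out. Replicates of 1 group differed by far more than counting noise (chi-square per degree of freedom at least 329). Nothing in the labels says whether they come from different animals, so a p-value here reflects the spread among these libraries, which may be technical. The title numbers shared by Infant 31a and 31b, and by 3a and 3b of Pre-puber, are not explained there. The members, lists and the rule for named miRNAs (members, other family miRNAs, the 3 miRNAs most like each member) were chosen with earlier results of these data known.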

Additional observations from a re-analysis of the deposited data

Results flagged for a closer look

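Counts outside the 17 libraries were held by the authors' column of totals, which is larger than the sum of the libraries: 4176 for miR-15b, 29671 for miR-16 and 42021 for miR-195 (14.2%, 9.77% and 13.1% of the total). The sources used here do not say which samples they come from, and they entered no comparison.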

How the results depend on the processing

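In Sperm against Adult, the 3 members kept their direction and their call under 50 of 51 alternatives. The exception was miR-15b scaled to the total alone (1.10). For miR-195, which passed the filter of the main fit only through the Adult libraries, the call gives no added support. Leaving out 1 library at a time gave log2 fold changes of 2.01 to 3.08 for miR-15b, 3.37 to 4.32 for miR-16 and -6.92 to -5.80 for miR-195, and over all alternatives 1.10 to 3.08, 2.41 to 4.32 and -7.82 to -5.80. The lowest miR-15b and miR-16 values of the single omissions came without Adult 20.

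In testis, calls appeared under some alternatives and several small differences changed sign; the cause was not tested. With all entries in the fit, adjusted p over the stages was 0.0341 for miR-15b, 0.00512 for miR-16 and 0.00011 for miR-195. The log2 fold changes were then 1.30 (miR-195) and 0.27 (miR-16) for Pre-puber against Infant, -1.56, -1.77 and -2.83 (miR-15b, miR-16, miR-195) for Puber against Pre-puber, -0.23 (miR-195) for Adult against Puber, and -0.80, -0.93 and -1.75 for Adult against Infant. That fit counts predicted hairpins too and called 616, 197 and 840 entries in Pre-puber against Infant, Puber against Pre-puber and Adult against Infant, 870 over the stages and 518 in Sperm against Adult. Scaled to the total alone, Adult against Infant gave 1.72, 1.63 and 0.86, miR-16 gave 0.33 for Pre-puber against Infant and 0.14 for Puber against Pre-puber, and its adjusted p over the stages was 0.0207. DESeq2 gave 0.0389 there.

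Sign changes without a call were, for Puber against Pre-puber, miR-16 at 0.051 with the size factors of DESeq2 in edgeR, 0.051 with DESeq2 and 0.014 with limma-voom, and miR-15b at -0.0076 with no filter and -0.067 with libraries of a shared title number summed. For Pre-puber against Infant they were miR-15b at -0.16 with upper-quartile scaling and miR-16 at 0.20 with summed libraries. For Adult against Puber they were miR-195 at -0.023 with upper-quartile scaling and -0.019 with limma-voom, and for Adult against Infant miR-195 at 0.038 with summed libraries. Single omissions gave -0.28 to 0.46 (miR-15b) and -0.57 to 0.15 (miR-16) for Pre-puber against Infant, -0.11 to 0.63 (miR-15b) and -0.27 to 0.37 (miR-16) for Puber against Pre-puber, -0.16 to 0.24 (miR-195) for Adult against Puber, and -0.77 to 0.16 (miR-195) for Adult against Infant. The ratio of miR-15b to miR-16 in Adult against Infant took values of -0.040 with summed libraries and -0.13 to 0.53 with single omissions. Other ratios kept their direction.

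The number of miRNAs called in Puber against Pre-puber was 2 by the main test. It was 7 to 9 with the other scalings, 16 with DESeq2, 19 with limma-voom and 30 without Pre-puber 14. It was 1 without Puber 10, and 0 with libraries of a shared title number summed, in a fit of these groups alone, and without Pre-puber 3a, Pre-puber 3b, Puber 11 or Puber 19. In Pre-puber against Infant the 44 calls became 29 with summed libraries and 26 in the fit of the groups alone, and in Adult against Puber 0, 10 with DESeq2 19 in a fit of these groups alone and 7 without Puber 19 or without Adult 20, 34 having an unadjusted p under 0.05. No paired analysis was possible because the groups share at most 1 replicate number. miR-195 in Sperm 4 rests on 4 counts, which limits the precision of its level there.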
